A study of Mus musculus with 21 samples.

Results

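The genes of lipoylation and of the copper-sensitive lipoylated enzymes described here number 9 (Fdx1, Lias, Lipt2, Lipt1, Dlat, Dlst, Dld, Pdha1 and Pdhb), and were taken by symbol from the 21872 symbols that both count tables hold. All 9 were present in both tables and all 9 passed the filter on low counts at each age. RNA was sequenced from mouse brain in 4 groups: controls given water at embryonic day 18.5 (E18.5, 6 libraries), animals given the copper chelator trientine (TETA) at E18.5 (6 libraries), controls given water at 7 weeks after birth (5 libraries) and animals given TETA at 7 weeks (4 libraries). The TETA groups are labelled copper-deficient. The protocol text speaks of prefrontal cortex of male mice at 7 weeks, whereas the tissue label of every library is brain, so region and sex at E18.5 were taken as not stated. Dose, route, duration and strain are not given in the sources used here.

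Lipoic acid is a sulfur-containing cofactor that is built on a lysine of a few mitochondrial proteins. LIPT2 transfers an octanoyl chain from mitochondrial fatty acid synthesis, LIAS inserts the sulfur atoms using iron-sulfur clusters, FDX1 supplies electrons to LIAS, and LIPT1 passes the finished group on to the E2 subunits of the 2-oxoacid dehydrogenases. DLAT is the E2 subunit of the pyruvate dehydrogenase complex and DLST that of the 2-oxoglutarate dehydrogenase complex; DLD is the E3 subunit that reoxidises the lipoyl arm in both, and PDHA1 and PDHB form the E1 subunit that decarboxylates pyruvate. In cuproptosis, a form of cell death described in copper-loaded cells, copper binds lipoylated DLAT and loss of FDX1 or of the lipoylation enzymes protects cells. Neurons depend on pyruvate dehydrogenase to feed glucose carbon into the tricarboxylic acid (TCA) cycle.

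The lipoylated lysine is what sets the E2 genes apart from the other members, so the coding stretch around it is shown for Dlat, which has a pair of such sites, for Dlst, and for the lipoylated proteins outside the 9 genes (Pdhx, Dbt and Gcsh). Each line holds 48 bases in coding orientation from the GENCODE vM21 transcripts, 5′ to 3′, with the lysine codon in capitals.
Dlat, codon 131: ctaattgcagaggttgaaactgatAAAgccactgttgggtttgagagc
Dlat, codon 258: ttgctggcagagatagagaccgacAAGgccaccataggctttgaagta
Dlst, codon 111: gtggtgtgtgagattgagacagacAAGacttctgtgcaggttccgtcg
Pdhx, codon 97: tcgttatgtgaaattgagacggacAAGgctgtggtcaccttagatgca
Dbt, codon 105: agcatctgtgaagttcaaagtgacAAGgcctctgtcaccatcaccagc
Gcsh, codon 104: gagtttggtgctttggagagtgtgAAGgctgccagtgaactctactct
The first Dlat site spans the junction of exons 2 and 3 of 14, within chr9:50658254-50658699 (mm10, minus strand), and the second the junction of exons 5 and 6. The second Dlat site matched the first at 62.5% of the 48 bases. The Dbt site matched it at 54.2%, the Dlst site at 50% and the Pdhx site at 43.8%. The Gcsh site, in the carrier protein of the glycine cleavage system, matched it at 39.6%, the lowest share of the 5.

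As deposited, the E18.5 libraries held 14678265 to 24308555 counts and the 7-week libraries 17838051 to 24035857. Nothing states that all replicates came from separate animals, so the p-values measure only the spread between these libraries, which may be partly technical. At E18.5, summed Y-linked levels were 0 and 186 CPM in control replicates 2-1 and 2-2, and 192 and 0 CPM in 3-1 and 3-2. They were 174 and 0 CPM in TETA replicates 2-1 and 2-2. Each of these pairs shares a first number but did not come from the same animal. What the first number stands for was taken as not stated, and the tests treated all 6 libraries of a group as separate. Cortical excitatory neuron markers summed to at least 2029 CPM (counts divided by the TMM-scaled library size) in every library, and 8 of 8 were detected at both ages. Striatum markers were also present: their summed level was 722 to 911 CPM in control and 279 to 393 CPM in TETA libraries at 7 weeks, and 504 to 579 CPM against 516 to 557 CPM at E18.5. At 7 weeks 13 of 13 striatum markers were lower in TETA at an adjusted p under 0.05. Interneuron markers summed to 865 to 900.1 CPM in control and 818 to 858 CPM in TETA there, with 2 of 6 lower, and of the 8 cortical excitatory markers 2 were lower and 1 higher. Choroid plexus markers ran from 4.51 to 60.4 CPM in 7-week control and from 3.56 to 6.63 CPM in TETA. Oligodendrocyte and myelin markers at 7 weeks summed to 6361 to 7487 CPM in control and 5731 to 6699 CPM in TETA, with 0 of 8 called. Endothelial markers at E18.5 summed to 143 to 162 CPM in control and 164 to 176 CPM in TETA, without overlap, and 0 of 6 were called. In bulk RNA, fewer cells of a type and less RNA per cell cannot be told apart. At E18.5, Y-linked genes reached a summed 1 CPM in 4 of 6 control and 3 of 6 TETA libraries, so both sexes were present there, and Pdha1 is on the X chromosome.

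By CPM per kilobase of the principal transcript (mean ± SD), the E1 genes were the most abundant of the 9 and the transferase genes Lipt1 and Lipt2 the least. In E18.5 control, Pdhb stood at 67.8 ± 2.06 and Pdha1 at 62.4 ± 1.98 (SD, n = 6). Dlst stood at 45.4 ± 1.22, Dld at 37.4 ± 2.13, Lias at 16.5 ± 1.17, Dlat at 12.4 ± 0.767, Fdx1 at 10.8 ± 0.937, Lipt2 at 3.97 ± 0.508 and Lipt1 at 2.93 ± 0.316 CPM per kilobase. Neighbours in that order did not overlap between libraries, except Dlat and Fdx1, whose libraries ran from 11.2 to 13.4 and from 9.75 to 12.3.

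At 7 weeks the order of these per-kilobase levels differed at 3 places. In 7-week control, Pdha1 stood first at 106 ± 2.53 and Pdhb next at 79.3 ± 3.68 CPM per kilobase (SD, n = 5). Dlst was at 54.3 ± 0.646 and Dld at 48.5 ± 2.00, and Dlat, at 23.8 ± 1.58, stood above Lias, at 17.6 ± 0.663 CPM per kilobase. Fdx1 was at 10.5 ± 0.910, and Lipt1, at 3.44 ± 0.534, stood above Lipt2, at 2.60 ± 0.271. The last pair's libraries overlapped, and no other neighbours did. The order depends on the transcript length used: per kilobase of all annotated exons, Pdha1 was first at both ages, at 47.6 ± 1.51 and 80.9 ± 1.93, and Dlst fell below Dld, at 13.1 ± 0.353 against 25.9 ± 1.47 in E18.5 control. By that length Fdx1 was below Lipt2 in E18.5 control (3.04 ± 0.264 against 3.97 ± 0.508), and Dlat was above Lias there (10.3 ± 0.633 against 6.02 ± 0.426). In 7-week control Dld was above the E1 gene Pdhb (33.5 ± 1.38 against 31.1 ± 1.44).

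**Figure D1:**
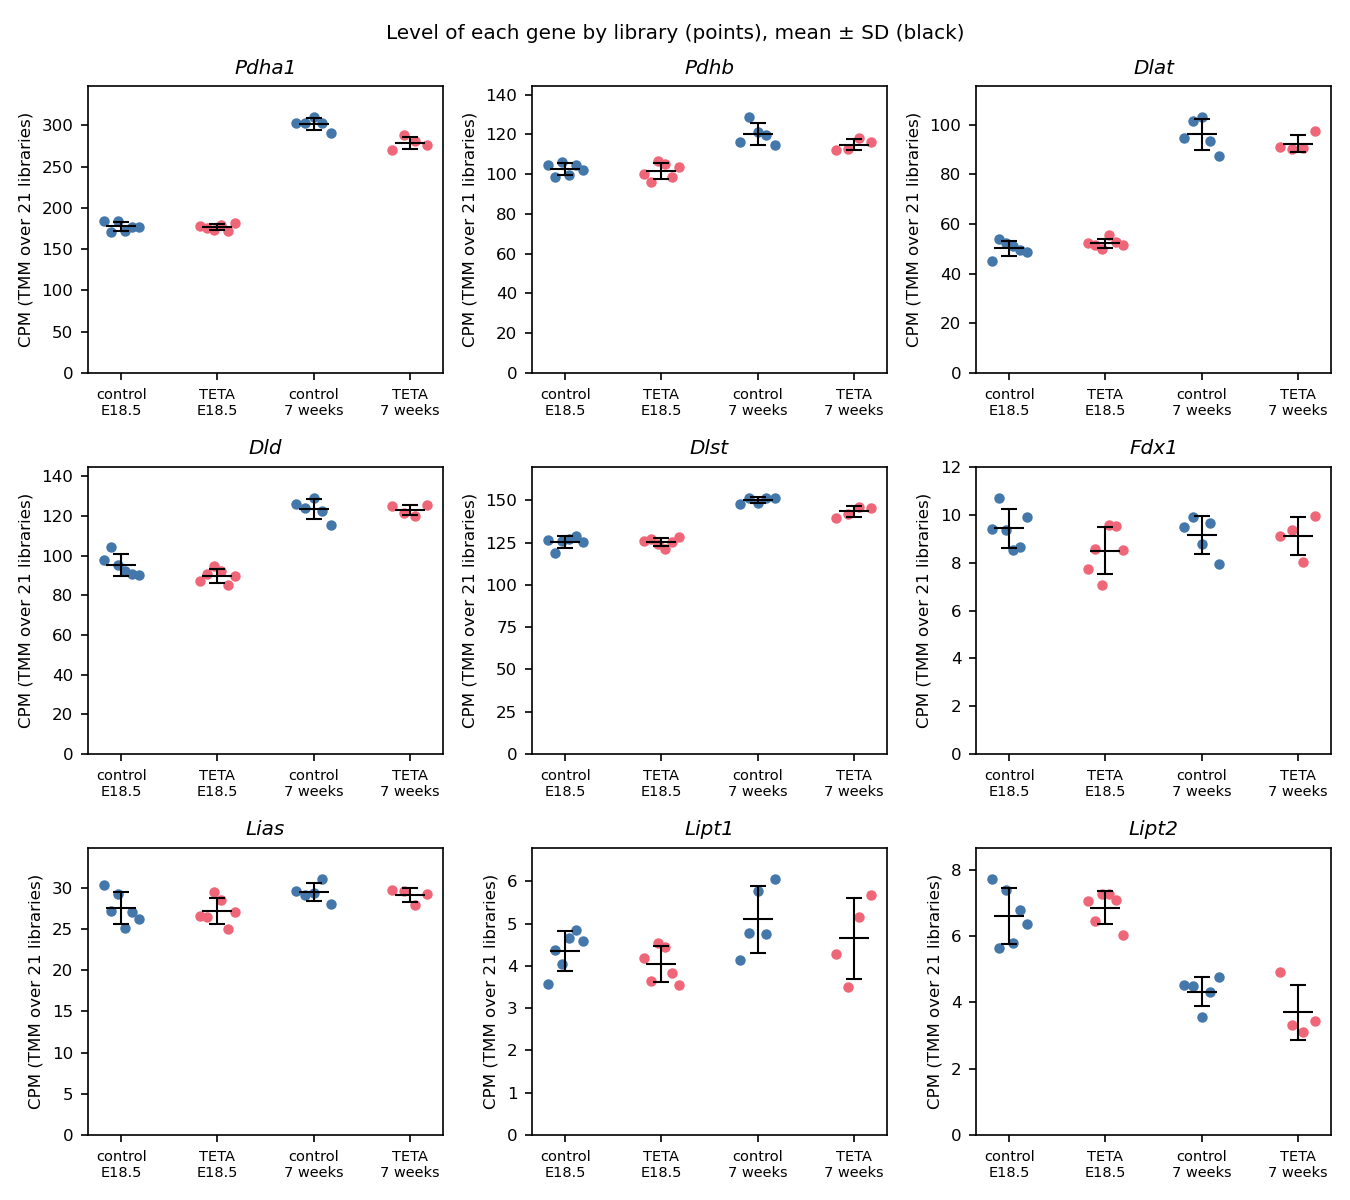
Level of each of the 9 genes in every library, in CPM scaled by TMM over all 21 libraries (vertical axes from 0), for control (blue) and TETA (red) at E18.5 and 7 weeks; points are libraries and black bars the mean ± SD. Pdha1 and Dlat sit higher at 7 weeks in both treatments and Lipt2 sits lower, while Fdx1 and Lias stay in the same range.

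At E18.5 none of the 9 genes passed the test of TETA against control. In edgeR's quasi-likelihood test, with p-values adjusted over all genes by Benjamini-Hochberg, 0 of 9 passed an adjusted p of 0.05 and 0 of 9 had an unadjusted p under 0.05; of all 13794 genes tested, 0 passed (0%) and 660 (4.78%) had an unadjusted p under 0.05, while DESeq2 called 10 genes and limma voom 8, none of them among the 9. Without control replicate 3-2 edgeR called 3 genes and without TETA replicate 1-2 it called 7, again none of the 9. For 0 of the 9 were the groups free of overlap, as for 0.312% of all genes. The members' median log2 fold change was -0.01, beside -0.0027 for all genes tested, with 2 members above 0 and 7 below.

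Among the lipoylation genes, Fdx1 had the lowest log2 fold change of the 9 at E18.5. Its level, in CPM scaled within that age, had a lowest, median and highest value of 8.84, 9.80 and 11.1 in control and 7.38, 8.88 and 10.01 in TETA. The groups overlapped between 8.84 and 10.01 CPM, and the log2 fold change was -0.14 (SE 0.081, 95% interval -0.31 to 0.03, adjusted p = 0.996). The log2 fold change was -0.12 (SE 0.099) for Lipt1, -0.02 (SE 0.057) for Lias and 0.05 (SE 0.087) for Lipt2, each at an adjusted p of 0.996 or above. The Lipt1 interval ran from -0.32 to 0.09, on 57 to 114 counts per library.

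For the E2, E3 and E1 genes at E18.5 the intervals were narrower. Dld, the E3 gene, came nearest to the unadjusted threshold, with 93.8, 97.5 and 108 CPM (lowest, median, highest) in control and 88.3, 93.7 and 98.7 CPM in TETA, that is, a log2 change of -0.08 (SE 0.040, unadjusted p = 0.0584, adjusted p = 0.996 in edgeR's test). Its groups overlapped between 93.8 and 98.7 CPM. The log2 fold change was 0.06 (SE 0.043) for Dlat, -0.0032 (SE 0.032) for Dlst, -0.01 (SE 0.033) for Pdha1 and -0.01 (SE 0.036) for Pdhb. The 95% intervals of Dlst, Pdha1 and Pdhb ended at 0.064, 0.061 and 0.061 above 0, and none went below -0.09.

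At 7 weeks, 1 of the 9 genes was lower in TETA than in control, Pdha1, which fell by 6.99%. Of all 14240 genes tested, 1418 passed (9.96%), with 808 higher (5.67%) and 610 lower (4.28%), so a count of 1 in 9 is near the background. The count over all genes was 927 without TETA replicate 3. The members' median log2 fold change was -0.05, beside 0.00 for all genes, with 2 members above 0 and 7 below.

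Pdha1, the X-linked gene of the E1 alpha subunit whose phosphorylation switches the complex off, stood at 286, 286, 294, 287 and 276 CPM in the 5 control libraries of 7 weeks. In the 4 TETA libraries it stood at 258, 275, 269 and 261 CPM. The groups did not overlap, by a margin of under 1 CPM between 275.1 in TETA and 275.5 in control; across all genes tested 11.2% did not overlap. The log2 fold change was -0.10 (SE 0.031, 95% interval -0.17 to -0.04, adjusted p = 0.0341 in edgeR's quasi-likelihood test). Pdha1 lost this call when 7 of the 9 libraries were left out one at a time (adjusted p up to 0.112), kept it without control replicate 5 and without TETA replicate 2, and lost it without TMM scaling (log2 fold change -0.09, adjusted p = 0.0734). With the striatum markers' score as a covariate its log2 fold change was -0.09 (SE 0.095, adjusted p = 0.990 in edgeR's test) and 7 genes in all were called. The summed striatum markers did not overlap between the treatments at 7 weeks (722 to 911 CPM in control, 279 to 393 CPM in TETA). The score thus largely coincides with treatment, and this fit cannot separate them. The part of the striatum difference in the Pdha1 value was not tested.

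The other members did not pass at 7 weeks. Pdhb, the E1 beta gene, had 110, 122, 115, 113 and 109 CPM in the control libraries against 107, 108, 113 and 110 CPM in the TETA libraries, which overlap, with a log2 fold change of -0.05 (SE 0.038, adjusted p = 0.437). Dlst ranged over 140 to 144 CPM with water and 133 to 140 CPM with TETA (log2 fold change -0.06, SE 0.032, adjusted p = 0.300), and its ranges met only between the lowest control and the highest TETA library. Dlat ranged over 83.0 to 97.7 CPM with water and 86.0 to 92.2 CPM with TETA, so that TETA lay inside the control range, with a log2 fold change of -0.05 (SE 0.045). Dld averaged 117 ± 4.73 CPM (SD, n = 5) with water and 117 ± 2.03 CPM (SD, n = 4) with TETA, and its log2 fold change was 0.01 (SE 0.036). With the striatum score as a covariate the values were -0.18 for Pdhb, -0.16 for Dlst, 3.62e-05 for Dlat and 0.12 for Dld, none of them called.

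The lipoylation genes gave no call at 7 weeks, and 3 of the 4 had wide intervals. Fdx1 had 8.98, 9.39, 8.32, 9.14 and 7.55 CPM in the control libraries, against 8.72, 8.97, 7.70 and 9.43 CPM in the TETA libraries. Its ranges nearly coincided, with a log2 fold change of 0.0012 (SE 0.090, 95% interval -0.19 to 0.19). For Lias the log2 fold change was -0.01 (SE 0.049), and for Lipt1 -0.11 (SE 0.144). With the striatum score as a covariate Fdx1 had 0.32, Lias 0.16 and Lipt1 -0.79, none of them called. Leaving out 1 library moved Lipt1 between -0.21 (without TETA replicate 4) and -0.01 (without TETA replicate 2). Lipt2, the octanoyltransferase gene, had 4.27, 4.23, 3.38, 4.09 and 4.51 CPM in the control libraries, against 4.68, 3.18, 2.97 and 3.27 CPM in the TETA libraries. TETA replicate 1 was the highest of the 9 libraries and the other 3 TETA libraries were the lowest, which gave a log2 fold change of -0.22 (SE 0.144, 95% interval -0.52 to 0.09, adjusted p = 0.393). With the striatum score as a covariate its direction turned, to 0.26 (SE 0.423). Without TETA replicate 1 it was -0.39 (adjusted p = 0.0980 in edgeR's test) and without TETA replicate 3 it was -0.14.

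**Figure D2:**
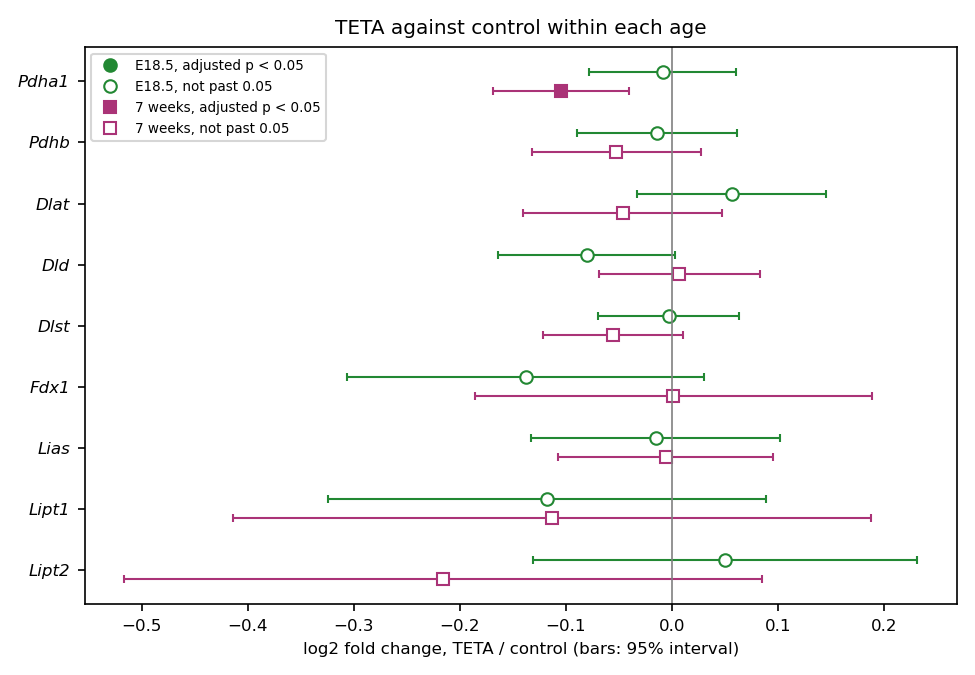
Log2 fold change of TETA against control for each of the 9 genes at E18.5 (circles) and 7 weeks (squares); bars are 95% intervals and filled marks passed an adjusted p of 0.05. Pdha1 at 7 weeks, at -0.10, is the filled mark, and the intervals of Lipt1 and Lipt2 at 7 weeks are the widest.

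Whether the TETA effect differed between the ages was tested as an interaction in a fit of all 21 libraries. By edgeR's test it passed for 0 of the 9 genes, and 1 of the 9 had an unadjusted p under 0.05; of 14660 genes tested, 454 passed (3.1%) and 15.9% had an unadjusted p under 0.05. The 454 became 616 with DESeq2, 696 with limma voom, 290 without TETA replicate 3 of 7 weeks, and 126 with only the E18.5 libraries that had Y-linked counts (an alternative chosen after seeing the data), with none of the 9 called in any of them. Pdha1 had an interaction of -0.11 (SE 0.046, unadjusted p = 0.0249, adjusted p = 0.226 in edgeR's test), so its fall at 7 weeks was not shown to differ from its value of -0.01 at E18.5. Dlat had an interaction of -0.11 (SE 0.065, adjusted p = 0.412) and Lipt2 of -0.28 (SE 0.163, adjusted p = 0.432), which became -0.46 (adjusted p = 0.129) without TETA replicate 1 of 7 weeks. The remaining members lay between -0.06 and 0.13.

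Around the 9 genes, 6 lists of related genes were read in the same fits, without the members themselves. At E18.5 none of their 66 tested genes passed in edgeR's test, DESeq2 or limma voom, while edgeR's unadjusted p was under 0.05 for 2. The lists' median log2 fold changes lay between -0.09 (fatty acid synthesis) and 0.03 (copper death screens). The genes with the smallest p in each list were Pdk1, a kinase that inactivates pyruvate dehydrogenase (log2 fold change 0.13, adjusted p = 0.739 in edgeR's test), Bckdha, the E1 alpha gene of the branched-chain complex (-0.10), Ndufab1, the mitochondrial acyl carrier protein (-0.08), Slc25a28, a mitochondrial iron importer (-0.10), Atp7a, a copper exporter (0.09), and Pcx, pyruvate carboxylase (0.05), the last 5 with an adjusted p of 0.996.

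At 7 weeks, 11 of the 66 passed, 9 lower and 2 higher in TETA, beside 9.96% of all genes. Of 10 tested genes of the pyruvate dehydrogenase complex and its regulators, 2 passed, and they are both phosphatases that reactivate the complex: Pdp2 fell (-0.34, SE 0.089, adjusted p = 0.0195) and Pdp1 rose (0.16, SE 0.047, adjusted p = 0.0332 in edgeR's test). Pdp2 had 12.5 ± 1.15 CPM (SD, n = 5) with water and 9.97 ± 1.24 CPM (SD, n = 4) with TETA, and Pdp1 had 182 ± 9.40 and 203 ± 16.7 CPM. Neither pair of groups was free of overlap.

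Among 12 genes of the other lipoylated complexes, 4 passed at 7 weeks and all were lower. Ogdh, the E1 gene that works with Dlst, averaged 288 ± 3.16 CPM (SD, n = 5) with water and 261 ± 7.11 CPM (SD, n = 4) with TETA, with no overlap (log2 fold change -0.14, SE 0.029, adjusted p = 0.00325 in edgeR's test). Gldc, the decarboxylase of glycine cleavage, fell by 0.23 on the log2 scale (adjusted p = 0.0164), Bckdha by 0.17 (adjusted p = 0.0337) and Bckdk, the kinase of the branched-chain complex, by 0.14 (adjusted p = 0.0491). Of the genes of lipoylated proteins, Pdhx had a log2 fold change of -0.08 (adjusted p = 0.316), Dbt of -0.18 (adjusted p = 0.0791) and Gcsh of -0.04 (adjusted p = 0.654). The list's median was -0.09, beside 0.00 for all genes. Gldc is abundant in astrocytes, and 2 of 7 astrocyte markers were lower in TETA, with summed levels of 4756 to 5397 CPM in control and 4360 to 4714 CPM in TETA; the part of this in the Gldc value was not tested.

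Of 16 TCA cycle genes, 3 passed at 7 weeks and all were lower, among them Pcx by 0.16 and Mdh2, the mitochondrial malate dehydrogenase, by 0.11 on the log2 scale (adjusted p of 0.00862 and 0.0345 in edgeR's test). The list's median was -0.06. Of 17 iron-sulfur cluster genes, 2 passed: Slc25a37, the mitochondrial iron importer mitoferrin 1, rose by 0.26 (35.3 ± 1.02 CPM in control, 42.2 ± 1.88 CPM in TETA, adjusted p = 0.000843) and Hspa9, a mitochondrial chaperone, fell by 0.12 (adjusted p = 0.0180). None of 6 genes of mitochondrial fatty acid synthesis passed in edgeR's test and 0 had an unadjusted p under 0.05, with Mecr nearest (0.15, adjusted p = 0.295). None of 5 other genes of the copper death screens passed in edgeR's test and 2 had an unadjusted p under 0.05. That count depended on the processing: 1 gene of this list passed with limma voom, 1 without TMM scaling and 1 without TETA replicate 2. The medians of the other lists were -0.03 for the pyruvate dehydrogenase list, 0.02 for iron-sulfur clusters, -0.01 for fatty acid synthesis and 0.10 for the copper death screens. With the striatum score as a covariate, 0 genes of the 6 lists were called at 7 weeks, while the standard errors grew and the values moved in both directions. The score largely coincides with treatment at 7 weeks, so a call lost in this fit cannot be ascribed to either. Ogdh then had -0.16 (SE 0.091), Gldc -0.37 (SE 0.177), Bckdha -0.30 (SE 0.146), Mdh2 -0.20 (SE 0.096), Pcx -0.14 (SE 0.115), Hspa9 -0.11 (SE 0.099) and Pdp1 0.13 (SE 0.146). Pdp2 had -0.12 (SE 0.269), Bckdk -0.09 (SE 0.136) and Slc25a37 0.09 (SE 0.130).

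Ogdh, Slc25a37 and Pcx kept their calls whichever of the 9 libraries was left out. Gldc lost its call without TETA replicate 4 (adjusted p = 0.0600 in edgeR's test), and Hspa9 without TETA replicate 2 or 3 (0.0620 and 0.0672). Bckdha lost its call without control replicate 3 or 5 or TETA replicate 1, 2 or 4 (log2 fold change -0.19 to -0.14 over the 9 fits), and Bckdk without control replicate 1, 2 or 4 or any TETA replicate (-0.16 to -0.12). Mdh2 lost it without control replicates 2 to 5 or TETA replicate 1, 2 or 4 (-0.13 to -0.10). Pdp2 lost it without control replicate 1 or 2 or TETA replicate 1, 3 or 4 (-0.41 to -0.28), and Pdp1 without control replicate 1, 2, 4 or 5 or TETA replicate 3 or 4 (0.10 to 0.20). Bckdha, Bckdk and Mdh2 also lost their calls without TMM scaling, and Bckdk under DESeq2 and without the filter on low counts.

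**Figure D3:**
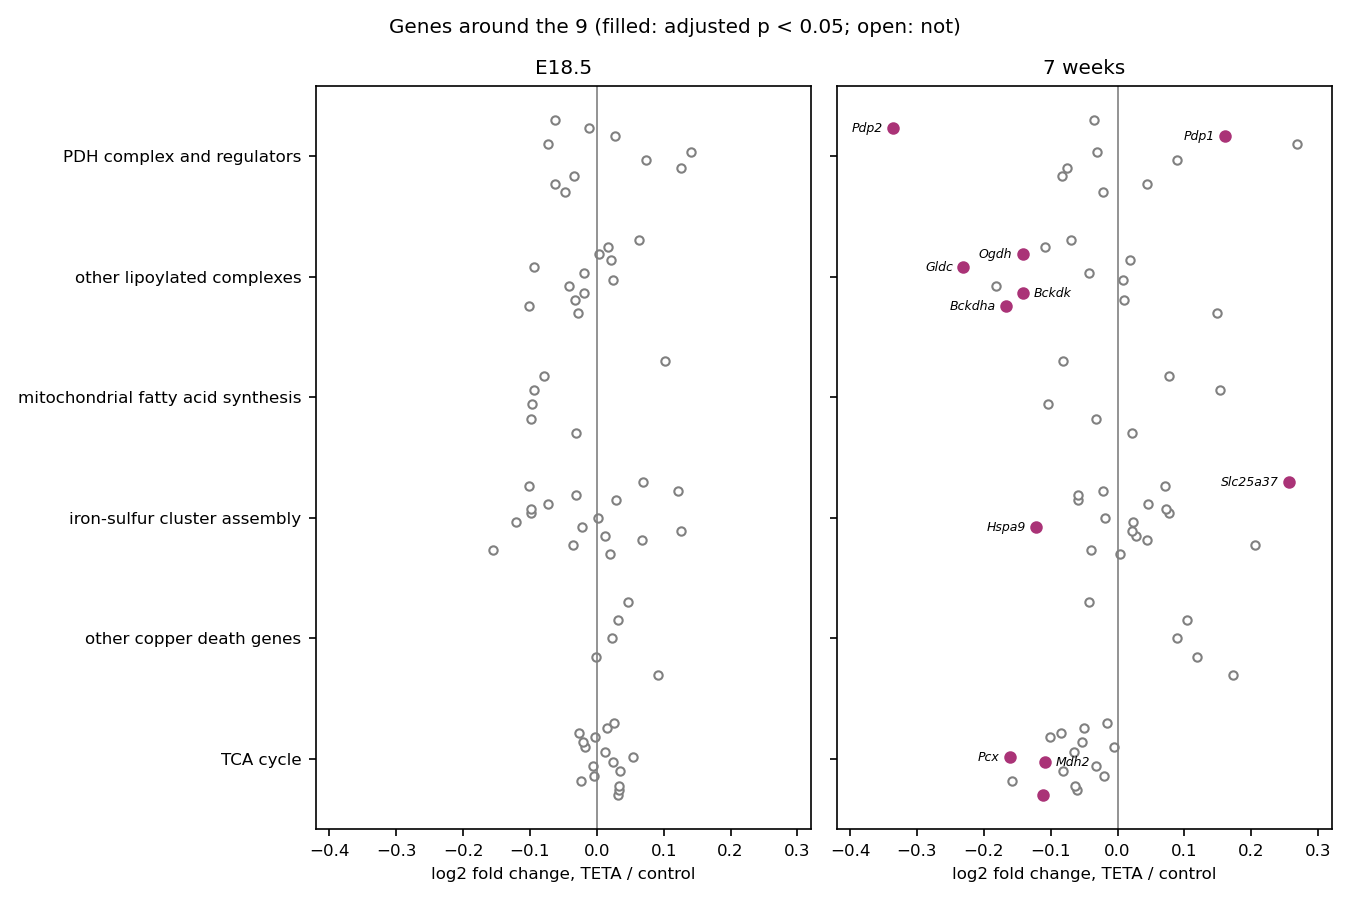
Log2 fold change of TETA against control at E18.5 (left) and 7 weeks (right) for the tested genes of the 6 related lists (rows), members excluded; filled points passed an adjusted p of 0.05 and open points did not, and filled points of genes described in the text are named. No point is filled at E18.5, and at 7 weeks 9 filled points lie below 0 and 2 iron or phosphatase genes, Slc25a37 and Pdp1, lie above.

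The comparison of ages set 7 weeks against E18.5. Among the 9 genes 6 passed in control, 5 higher at 7 weeks and 1 lower, and the same 6 passed in TETA in the same direction. Of all 14660 genes tested, 89.3% passed in control, 44% higher and 45.3% lower, and 88.1% passed in TETA, 43.6% higher and 44.5% lower, so 6 of 9 is below the background share. The members' median log2 fold change was 0.23 in control and 0.19 in TETA, beside -0.02 and -0.01 for all genes. Age coincides with the count table and may coincide with the region dissected, which cannot be told apart from age. Both sexes were present at E18.5, and every 7-week library had Y-linked counts. Cell type markers moved with age as well. In control, their summed levels, scaled within each age, went from 155 to 172 CPM at E18.5 to 6361 to 7487 CPM at 7 weeks for 8 oligodendrocyte and myelin markers, and from 448 to 525 CPM to 4756 to 5397 CPM for 7 astrocyte markers. Microglia markers went from 38.6 to 43.8 CPM to 268 to 295 CPM, and neural progenitor markers from 423 to 446 CPM to 62.6 to 72.2 CPM (7 genes each). Their part in the age values of the members and of the related lists was not tested. With only the E18.5 libraries that had Y-linked counts, an alternative chosen after seeing the data, the same number of members passed.

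Dlat rose the most. In E18.5 control its lowest, median and highest values were 45.2, 50.3 and 54.0 CPM, scaled over all libraries, and in 7-week control it stood at 94.6, 102, 103, 93.5 and 87.5 CPM. Every 7-week library was above every E18.5 library. The ages were free of overlap, in one direction or the other, for 79.5% of all genes tested in control and 80.3% in TETA. The rise was 1.91-fold in control (log2 fold change 0.93, SE 0.044, adjusted p = 6.03e-19 in edgeR's test) and 1.77-fold in TETA (log2 fold change 0.82, SE 0.047). In TETA the values went from 49.8, 51.9 and 55.4 CPM (lowest, median, highest) to 91.1, 90.0, 90.7 and 97.3 CPM.

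Pdha1 rose next, from 171, 177 and 184 CPM (lowest, median, highest) in E18.5 control to 303, 303, 311, 303 and 290 CPM in 7-week control. That was 1.70-fold (log2 fold change 0.76, SE 0.031, adjusted p = 9.08e-21), and 1.58-fold in TETA (0.66, SE 0.033). Pdhb, its E1 partner, rose less, from 103 ± 3.11 CPM (SD, n = 6) to 120 ± 5.57 CPM (SD, n = 5) in control, which is 1.17-fold (log2 fold change 0.23, SE 0.036, adjusted p = 8.78e-07 in edgeR's test) and 1.13-fold in TETA. The count ratio of Pdha1 to Pdhb within each library shows the gap without any scaling of libraries. It was 1.73 ± 0.0204 in E18.5 control, 1.74 ± 0.0671 in E18.5 TETA (SD, n = 6 and 6), 2.52 ± 0.0990 in 7-week control and 2.43 ± 0.0859 in 7-week TETA (SD, n = 5 and 4). The highest E18.5 library, at 1.82, was below the lowest 7-week library, at 2.35, and the treatments overlapped at both ages.

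**Figure D4:**
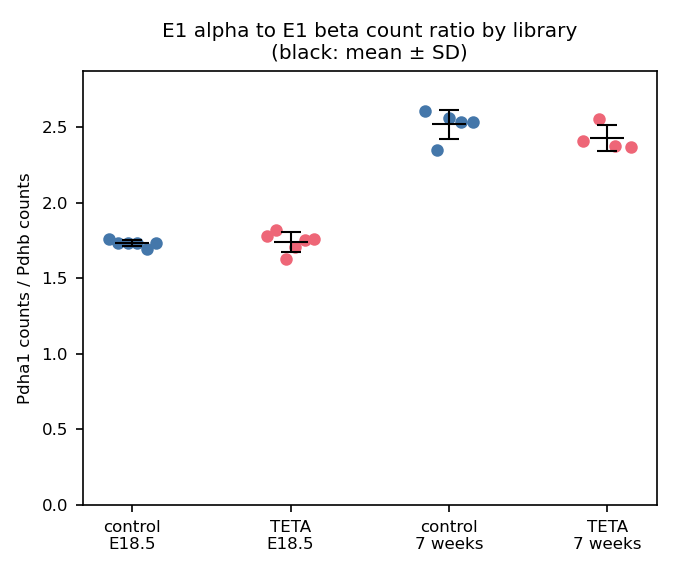
Ratio of Pdha1 counts to Pdhb counts in each library (vertical axis from 0, no unit) for control (blue) and TETA (red) at both ages, with mean ± SD in black. All E18.5 libraries lie at or below 1.82 and all 7-week libraries at or above 2.35.

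Dld and Dlst, whose products are shared with or belong to the 2-oxoglutarate complex, rose by smaller steps. Dld went from 95.2 ± 5.41 to 123 ± 5.09 CPM in control (SD, n = 6 and 5), which is 0.38 (SE 0.039) on the log2 scale, and the TETA value was 0.45 (SE 0.041). Dlst went from 125 ± 3.37 to 150 ± 1.79 CPM in control, 0.26 (SE 0.030), and had 0.19 (SE 0.032) in TETA. Neither gene's E18.5 and 7-week control libraries overlapped. The E2 gene Dlst thus changed 1.2-fold where the E2 gene Dlat changed 1.91-fold.

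Lipt2 was the 1 member lower at 7 weeks. Its lowest, median and highest values were 5.63, 6.57 and 7.73 CPM in E18.5 control, and it stood at 4.52, 4.48, 3.57, 4.32 and 4.75 CPM in 7-week control. The ages did not overlap in either treatment, and the level at 7 weeks was 0.658 of that at E18.5 in control (log2 fold change -0.60, SE 0.109, adjusted p = 6.63e-06 in edgeR's test) and 0.543 in TETA (-0.88, SE 0.120). These values rest on 57 to 186 counts per library.

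Fdx1, Lias and Lipt1 did not pass between the ages. Fdx1 had 8.53, 9.41 and 10.7 CPM (lowest, median, highest) in E18.5 control and 9.50, 9.94, 8.78, 9.66 and 7.96 CPM in 7-week control, a log2 fold change of -0.04 (SE 0.083, 95% interval -0.21 to 0.13) and of 0.09 (SE 0.090) in TETA. Lias had 0.10 (SE 0.051, adjusted p = 0.0666) in control and 0.10 (SE 0.054) in TETA, with E18.5 libraries from 25.1 to 30.3 CPM and 7-week libraries from 28.0 to 31.1 CPM in control. Lipt1 had 0.22 (SE 0.118, adjusted p = 0.0804) and 0.21 (SE 0.129). Both Lias and Lipt1 passed in control under DESeq2 (0.14 and 0.26), so their calls depended on the tool. Lias also passed in control without E18.5 control replicate 1-1 or 2-1 or 7-week control replicate 5 (0.12 to 0.13), and Lipt1 without 7-week control replicate 1 (0.29). In TETA, Lias passed without E18.5 replicate 2-1 (0.12) and Lipt1 without 7-week replicate 2 (0.31). Without TMM scaling the median of all genes shifted to -0.17 in control and -0.13 in TETA, and Fdx1 then passed as lower in control (-0.18) while Lias had -0.05; the 6 members that passed kept their direction, and Pdhb in TETA then missed the threshold (0.06, adjusted p = 0.128).

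**Figure D5:**
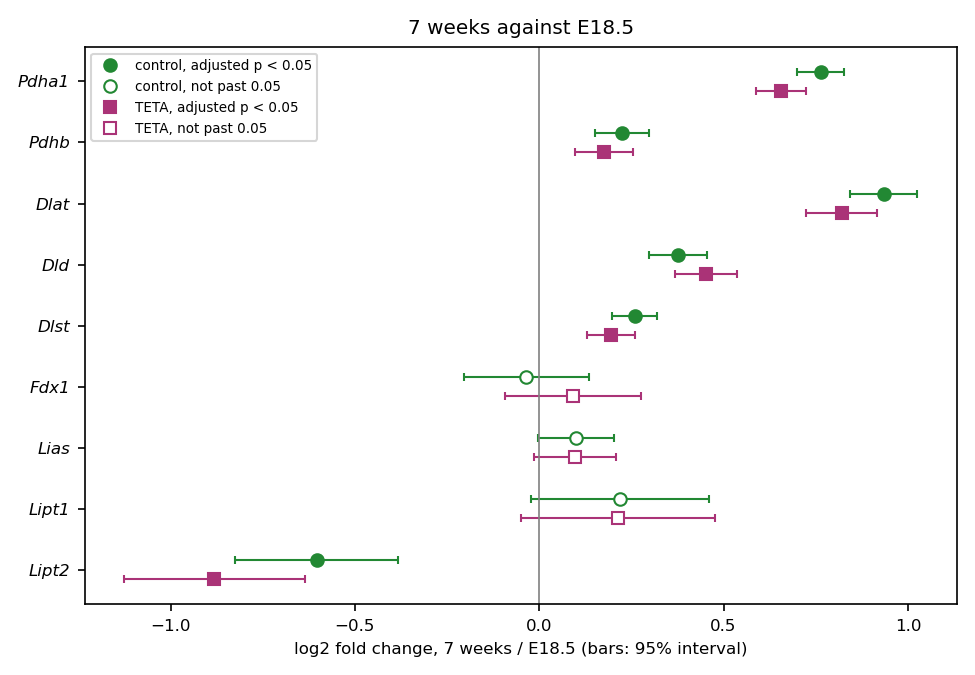
Log2 fold change of 7 weeks against E18.5 for each of the 9 genes in control (circles) and TETA (squares); bars are 95% intervals and filled marks passed an adjusted p of 0.05. Dlat and Pdha1 lie farthest to the right, Lipt2 alone is filled on the left, and Fdx1, Lias and Lipt1 are open in both treatments.

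The related lists moved with age as follows in control, beside 89.3% of all genes called. All 10 genes of the pyruvate dehydrogenase list passed, 9 higher and 1 lower, with a median log2 fold change of 0.95. The highest was the kinase gene Pdk2, at 19.6 ± 1.23 CPM at E18.5 and 91.7 ± 5.05 CPM at 7 weeks (SD, n = 6 and 5, each scaled within its age), a log2 fold change of 2.36. Pdp1 rose by 1.26, the pyruvate carrier gene Mpc1 by 0.99 and Pdk1 by 0.91, whereas Pdp2 was the 1 lower gene (-1.21 in control and -1.55 in TETA). Pdhx, the lipoylated E3-binding subunit gene, rose by 0.18.

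Of 12 genes of the other lipoylated complexes 10 passed in control, 9 higher and 1 lower, with the phosphatase gene Ppm1k (2.63), Ogdhl (1.76), Gldc (1.52) and Ogdh (1.15) among them. Ogdh thus had a larger log2 fold change than its E2 partner Dlst, at 0.26. Gcsh rose by 0.69 and Dbt had 0.01 (adjusted p = 0.886 in edgeR's test). In TETA 11 passed, 9 higher and 2 lower.

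For fatty acid synthesis in mitochondria, which feeds LIPT2, 5 of 6 genes passed in control, 4 higher and 1 lower (Oxsm 0.75, Cbr4 0.58, Acsf3 0.27, Ndufab1 0.26). The iron-sulfur cluster list, which serves LIAS, had 14 of 17 called, 10 higher and 4 lower, and the 4 with the smallest p were Isca1 (1.52), Slc25a37 (2.26), the scaffold gene Iscu (1.5) and the cysteine desulfurase gene Nfs1 (0.79). Of 16 TCA genes 14 passed, 13 higher and 1 lower, with Sdha (1.40), Idh3b (1.30), Sucla2 (1.23) and Idh3a (1.03) among the higher. All 5 other genes of the copper death screens passed. Among them Mtf1 rose by 0.48, and the copper transporters fell, Atp7a by 1.45, Atp7b by 1.36 and the importer Slc31a1 by 0.84.

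In the interaction test the same lists held 3 called genes. Pdk1 had -0.21 (SE 0.058, adjusted p = 0.0338), Pdp2 -0.34 (SE 0.094, adjusted p = 0.0401) and Pcx -0.23 (SE 0.064, adjusted p = 0.0465 in edgeR's quasi-likelihood test). At E18.5 Pdk1 averaged 56.1 ± 1.82 CPM with water and 61.2 ± 2.56 CPM with TETA (SD, n = 6 and 6), and at 7 weeks 95.7 ± 2.97 and 90.8 ± 5.34 CPM (SD, n = 5 and 4). Its groups overlapped at both ages, and neither age's own test passed. Over the 21 fits that each left out 1 library, Pdk1 kept its call in 10, Pdp2 in 8 and Pcx in 4, with adjusted p-values up to 0.0910, 0.112 and 0.0982, and all 3 calls were lost without TMM scaling. All 3 were also lost with only the E18.5 libraries that had Y-linked counts (adjusted p = 0.111 for Pdk1, 0.326 for Pdp2 and 0.136 for Pcx in edgeR's test). Pcx lost its call without the filter on low counts and with undivided counts (adjusted p = 0.0505 and 0.0555).

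The start regions of Dlat, which rose most with age, and of Lipt2, which fell, are shown because they are the members that moved farthest in opposite directions. Each run is the 250 bases before the RefSeq start (GRCm38.p6), 5′ to 3′ on the gene's strand, with the GC box letters GGGCGG and the CCAAT box, on either strand, in capitals. The windows lie at chr9:50659781-50660030 (minus strand) for Dlat and chr7:100159027-100159276 (plus) for Lipt2.
Dlat: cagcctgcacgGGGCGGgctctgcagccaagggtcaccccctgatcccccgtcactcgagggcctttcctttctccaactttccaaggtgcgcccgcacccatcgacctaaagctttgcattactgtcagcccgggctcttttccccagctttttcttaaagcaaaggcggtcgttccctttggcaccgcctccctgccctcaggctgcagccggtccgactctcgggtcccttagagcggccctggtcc
Lipt2: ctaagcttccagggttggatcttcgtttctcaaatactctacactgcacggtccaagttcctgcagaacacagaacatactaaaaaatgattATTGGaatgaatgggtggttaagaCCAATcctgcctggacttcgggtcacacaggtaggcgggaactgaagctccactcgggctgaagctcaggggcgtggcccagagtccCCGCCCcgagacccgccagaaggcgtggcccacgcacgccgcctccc
The GC box letters stood once in the Dlat window and once, on the other strand, in that of Lipt2, and CCAAT stood in the Lipt2 window on both strands. Neither was in the Pdha1 window. Over the windows of 250 bases before a start, GGGCGG was found for 6 of the 9 genes and in 32.7% of all 32851 windows, and CCAAT for 4 of 9 and in 33.8%. The letters TGCNCNC, searched as a loose form of the metal response element core, were found for Fdx1 and Dlat and in 44.4% of all windows. The NRF1 core GCATGCG was found for Pdhb and in 3.02%, and the ETS core CGGAAG for Lipt1 and in 13.6%. The estrogen-related receptor core AAGGTCA was found for none of the 9 and in 4.08%. Lipt1 has 3 windows and so had more bases searched than the others. A match to these letters is a description of the window.

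Within groups the 9 genes did not vary as a block. After each group's mean was removed, the 36 pairs of members had Pearson correlations of log2 CPM over the 21 libraries from -0.61 (Dld and Dlst) to 0.57 (Lias and Dld), with a median of 0.07 and 20 of 36 above 0. The libraries share depth and scaling, and no p is given. By the same measure over 14659 other genes, those most like Dlat were Rasgrp1 (0.857), Mospd2 (0.816), Osbpl8 (0.813), Rock2 (0.812) and Ano3 (0.808). Those most like Fdx1 were Bnip5 (0.789), H2-DMb2 (0.762), Me1 (0.749), Pcdhb7 (0.748) and Grpr (0.746). No other member was among these, and a maximum over so many genes is high in any data.

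The places of the members in mm10 bear on 3 of the counts. Pdha1 (chrX:160122209-160138413, minus strand) shares 603 exonic bases with Map3k15 on the opposite strand, Lipt1 (chr1:37871738-37876228, plus strand) shares 262 with Mitd1, and Lias (chr5:65391497-65410693, plus strand) shares 43 with the gene model Gm43311. The libraries keep strand, but the strand setting of the counting is not given in the sources used here, so reads from these stretches cannot be assigned with certainty. Exons of the other 6 genes overlap no other annotated gene. They are Fdx1 (chr9:51943306-51963556), Dlat (chr9:50634633-50659780), Dld (chr12:31331277-31351453) and Pdhb (chr14:8165996-8173025) on the minus strand, and Lipt2 (chr7:100159277-100161365) and Dlst (chr12:85110833-85134845) on the plus strand.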

How the data were processed

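Poly(A) mRNA libraries (TruSeq Stranded, per the labels' protocols) from 21 samples in 4 groups were analysed. The authors deposited whole-number counts per gene symbol in 1 table for each age. The submitters' processing notes name STAR 2.7.1a, featureCounts 2.0.1 and mm10; annotation and strand setting are not given in the sources used here. Every column matched 1 sample, and 0 columns of other samples were present.

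In the E18.5 table, all 1940 rows at 0 in control replicate 1-1 but not elsewhere held multiples of 11 in every other library. Those rows, none of them a member, were divided by 11. The lowest chi-square per gene between replicate libraries was 2.40, in 7-week control, so no 7-week pair agreed within counting noise. The lowest E18.5 value, 2.85, was taken on the undivided counts, which raise it, so agreement within counting noise was not tested there.

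Genes were kept by filterByExpr (minimum count 10), scaled by TMM and tested by edgeR's quasi-likelihood test (edgeR 4.0.16, R 4.3.3) with Benjamini-Hochberg adjustment over all genes at 0.05. Each age was fitted alone; the age contrasts and the interaction used all 21 libraries with 4 group means. Standard errors were taken as |log2 fold change| over the root of F. Lengths and positions came from GENCODE vM21. On simulated counts, a log2 change of 0.25 in 200 genes was recovered for 55.0% at E18.5, 49.0% at 7 weeks and 9.50% in the interaction, and a change of 0.5 for 86.5%, 83.0% and 69.5%.

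Named were all 9 members and, from each of 6 lists, up to 4 called genes with the smallest p per comparison, or in the TETA comparisons the 1 smallest p where none passed, plus Pdhx, Dbt and Gcsh; some list genes that the rule names are counted but not reported here by name. The age values of Mtf1 and Pdp2 were added after their values were seen. Members, lists and alternatives were chosen with earlier results of these data known. Not tested for low counts were Pdha2, Fdx2 and Cdkn2a. Hsd17b8, Htd2 and Fdx1l were not tested because the count tables hold no row under these symbols. The alternatives were DESeq2 1.42.0, limma 3.58.1 voom with library quality weights, library totals without TMM, no filter or a filter on a mean of 50 counts, undivided counts, each library left out, a replicate block, summed libraries and a striatum covariate. For Y-linked counts, a covariate and a subset were added after seeing the data.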

Additional observations from a re-analysis of the deposited data

Results flagged for a closer look

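Dlat stood high in TETA replicate 4 of 7 weeks, at 6.54 on the log2(CPM + 1) scale beside 6.44 to 6.46 in the other 3 libraries, a gap of 0.837 of the group's range. Dlst stood low in control replicate 1-2 of E18.5, at 6.96 beside 7.04 to 7.08 in the other 5 libraries, a gap of 0.667 of the range. These were 2 of 36 gene and group combinations examined, where 1.8 would be marked by chance (about 1 in 20).

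In 3 related genes the TETA effect differed between the ages by the interaction test. For Pdk1 the difference of log2 fold changes was -0.21, for Pdp2 -0.34 and for Pcx -0.23. None of the 9 members was among them, and the count of 3 in 66 list genes stands beside 3.1% of all genes.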

How the results depend on the processing

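Under the alternatives, Pdha1 at 7 weeks kept its direction and lost its call without TMM (-0.089, 0 members called) and with the striatum score as a covariate (-0.091, 0 members called). Over the 9 fits that left out 1 library its log2 fold change ran from -0.121 to -0.090, with 0 or 1 members called. These values changed sign. At E18.5 Dlst was 0.0014 with summed libraries. At 7 weeks Fdx1 was -0.0014 with DESeq2 and -0.016 with voom, Lias 0.010 without TMM and 0.157 with the striatum score, Lipt2 0.257 and Dlat 3.62e-05 with that score. The replicate block, which drops control replicate 5 at 7 weeks, gave -0.043 for Fdx1 and -0.016 for Dld there. With the striatum score Fdx1 was 0.318 and Lipt1 -0.790, the same sign as without it.

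Between the ages in control, Fdx1 was 0.00048 with DESeq2, 0.015 with a mean of at least 50 counts and -0.182 (called) without TMM. Lias was called with DESeq2 (0.136), voom (0.109), that filter (0.150) and undivided counts (0.126), and was -0.047 without TMM; Lipt1 was called with DESeq2 (0.256) and that filter (0.269). In TETA, Lias was called with DESeq2 (0.125), that filter (0.145) and undivided counts (0.124). Without TMM Fdx1 was -0.019, Lias -0.015 and Pdhb 0.064 (not called) there. For the interaction, Lias was 0.032 without TMM and Lipt1 0.025 with voom and 0.028 without TMM.

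With 1 library left out, sign or call changed within these ranges: at E18.5 Lias -0.042 to 0.014, Dlst -0.015 to 0.0054, Pdha1 -0.018 to 0.0026 and Pdhb -0.028 to 0.0011; at 7 weeks Fdx1 -0.047 to 0.058, Lias -0.023 to 0.014 and Dld -0.016 to 0.022; between ages in control Fdx1 -0.067 to 0.015, Lias 0.073 to 0.126 and Lipt1 0.146 to 0.289, in TETA Lias 0.074 to 0.119 and Lipt1 0.108 to 0.313; interaction Lias -0.031 to 0.023 and Lipt1 -0.110 to 0.096. Without a change of sign or call, Lipt1 ran from -0.215 to -0.010, Lipt2 from -0.391 to -0.135, Dlat from -0.078 to -0.022 and Pdhb from -0.069 to -0.026 at 7 weeks; at E18.5 Lipt2 ran from 0.010 to 0.093, Dlat from 0.031 to 0.079 and Dld from -0.096 to -0.051. Between the ages in TETA Fdx1 ran from 0.047 to 0.151, and in the interaction Lipt2 ran from -0.456 to -0.193, Fdx1 from 0.078 to 0.187, Dld from 0.049 to 0.092 and Pdhb from -0.066 to -0.022. Mecr at 7 weeks was -0.033 with the striatum score.

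Same-numbered control and TETA libraries did not deviate together in every pair (correlation of deviations -0.275 to 0.284, mean 0.019, over 6 pairs at E18.5, and -0.069 to -0.030, mean -0.050, over 4 at 7 weeks), so the numbers were not taken as pairing. With the replicate block 1072 genes were called at 7 weeks, Pdha1 (-0.12) among them, and none of the 9 at E18.5; of the 11 related genes called at 7 weeks only Pdp2, Ogdh and Slc25a37 kept their calls. Low counts limit Lipt1, Lipt2 and Fdx1 most.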
